A study of Mus musculus with 114 samples.

Results

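The 8 genes described here are the cholesterol synthesis genes Srebf2, Hmgcs1, Idi1, Fdps, Fdft1, Sqle, Lss and Insig1, chosen by symbol among the 29132 genes with adipocyte RNA-seq values. Adipocytes were collected as the floating fraction of collagenase-digested perigonadal white adipose tissue from male C57BL/6J mice. Feeding of chow (CD) or of a high fat diet (HFD) began at 6 weeks of age and went on for 8, 20 or 34 weeks, with no genetic change or drug in any group. Per the study's methods, the high fat diet drew most of its calories from fat, and more than 1 control diet served as chow. Which CD group received which control diet is not stated there. Mice were fasted for 6 hours before collection. There were 6 mice in each group, except for 8 CD mice at 34 weeks, and each of the 38 mice gave 1 library, merged from 3 technical replicates. The mice were all male, and the floating fraction can carry other cells of the fat pad, so these values describe a fraction rather than a pure cell type.

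Cholesterol is built in the cytosol and endoplasmic reticulum from acetyl-CoA, through mevalonate, isoprenoids, squalene and lanosterol. SREBP-2, the product of Srebf2, is a transcription factor held in the endoplasmic reticulum by INSIG proteins when sterol is plentiful, and it is cleaved and moves to the nucleus when membrane sterol is low, where it raises transcription of the enzymes and of Insig1 itself. Adipocytes hold much of their free cholesterol at the lipid droplet and plasma membrane and are known to make little of it themselves. Of the 8 genes, 6 encode enzymes and 2 encode regulators, and none encodes a lipoprotein receptor, so uptake is described only through a separate list of uptake genes.

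The genes did not respond to the diet as a block. Insig1, Fdps, Lss, Hmgcs1 and Idi1 were higher in HFD than in CD adipocytes at 8 weeks, by 0.65 to 1.54 on the log2 scale. At 34 weeks Fdps and Lss were lower in HFD mice, by -0.82 and -0.58, and both were higher in 34 than in 20 week CD mice. Neither 34 week diet call held under every alternative run, and that of Lss lay at the threshold. Srebf2 followed another course, with a diet difference of 0.91 at 20 weeks and 0.74 at 34 weeks, and Fdft1 was lower in HFD mice at all 3 times. Within groups, Idi1, Fdps, Sqle, Lss and Insig1 rose and fell together from mouse to mouse. Hmgcs1 followed Insig1, and Srebf2 and Fdft1 moved in opposite directions to each other.

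The promoters of 5 of the 8 genes (Srebf2, Hmgcs1, Idi1, Lss and Insig1) had an entry in the RefSeq promoter table (GRCm38.p6), and 4 of them are shown because they belong to genes that moved together or apart. Each is the plus strand, 5′ to 3′, from 250 bases before the RefSeq start up to the first annotated exon base, with 3 motifs in capitals: CCAAT (bound by NF-Y, and read here as ATTGG from the other strand), TCACNCC (the core of the sterol regulatory element) and CACGTG (an E-box), each searched on both strands with no overlap between them.
Hmgcs1 (chr13:119690101-119690350): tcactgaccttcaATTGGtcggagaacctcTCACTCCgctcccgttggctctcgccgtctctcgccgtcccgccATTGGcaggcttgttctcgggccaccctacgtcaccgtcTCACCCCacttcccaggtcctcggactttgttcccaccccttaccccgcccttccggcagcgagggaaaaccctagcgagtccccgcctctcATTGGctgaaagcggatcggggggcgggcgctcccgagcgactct
Insig1 (chr5:28071162-28071362): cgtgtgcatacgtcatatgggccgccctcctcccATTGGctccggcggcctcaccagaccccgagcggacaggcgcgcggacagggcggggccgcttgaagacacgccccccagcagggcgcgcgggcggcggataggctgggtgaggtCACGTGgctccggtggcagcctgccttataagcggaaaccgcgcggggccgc
Lss (chr10:76531355-76531564): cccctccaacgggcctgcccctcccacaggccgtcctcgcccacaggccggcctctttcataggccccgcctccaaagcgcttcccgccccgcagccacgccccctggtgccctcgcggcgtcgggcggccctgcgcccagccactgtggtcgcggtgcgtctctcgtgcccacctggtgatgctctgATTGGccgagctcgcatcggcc
Srebf2 (chr15:82147019-82147180): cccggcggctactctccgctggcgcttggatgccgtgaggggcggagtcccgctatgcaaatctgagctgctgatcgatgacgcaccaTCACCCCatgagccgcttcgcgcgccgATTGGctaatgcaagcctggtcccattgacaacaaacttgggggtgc
All 5 promoters held CCAAT within the 250 bases searched, against 33.9% of the 32851 RefSeq promoters in the table. Hmgcs1 held 3 such matches and Idi1 held 2, and 10.1% of all promoters held 2 or more. TCACNCC was found in Hmgcs1 and Srebf2, against 13.4% of all promoters, and CACGTG was found in Insig1, against 6.02%. Idi1, whose matches lie in annotated exon sequence, is not printed. A match is a match of letters and was not tested as a binding site.

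Each mouse had 9275711 to 15480388 reads on genes (median 12522298.5), and at 8 weeks every HFD library was deeper than every CD library. Values are CPM, the reads of a gene in a library scaled to 1000000 reads on genes, and differences are given as log2(CPM + 1) with the standard error of the fit. The 8 genes passed the filter on low values and rested on 37 (Sqle) to 7490 (Insig1) reads per mouse. The summed CPM of the 12 adipocyte markers ranged from 18073 to 52260 over the mice. The 9 measured macrophage markers of 10 listed summed to 398 to 1585 CPM in CD and 932 to 2584 CPM in HFD mice at 8 weeks, 969 to 2805 and 3478 to 7172 CPM at 20 weeks, and 893 to 9217 and 3867 to 10896 CPM at 34 weeks. At the 3 times 4, 5 and 7 of the 9 were higher in HFD mice, 1 (Cd163, -1.35 ± 0.45) was lower at 20 weeks, and none was at 0 in any mouse. Of all genes tested, 29.8%, 38.3% and 27.5% were higher in HFD mice at these times. The summed macrophage marker RNA moved with diet and time, and its part in the values below was not tested. In such bulk samples fewer cells of a type and less RNA per cell cannot be told apart.

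**Figure D1:**
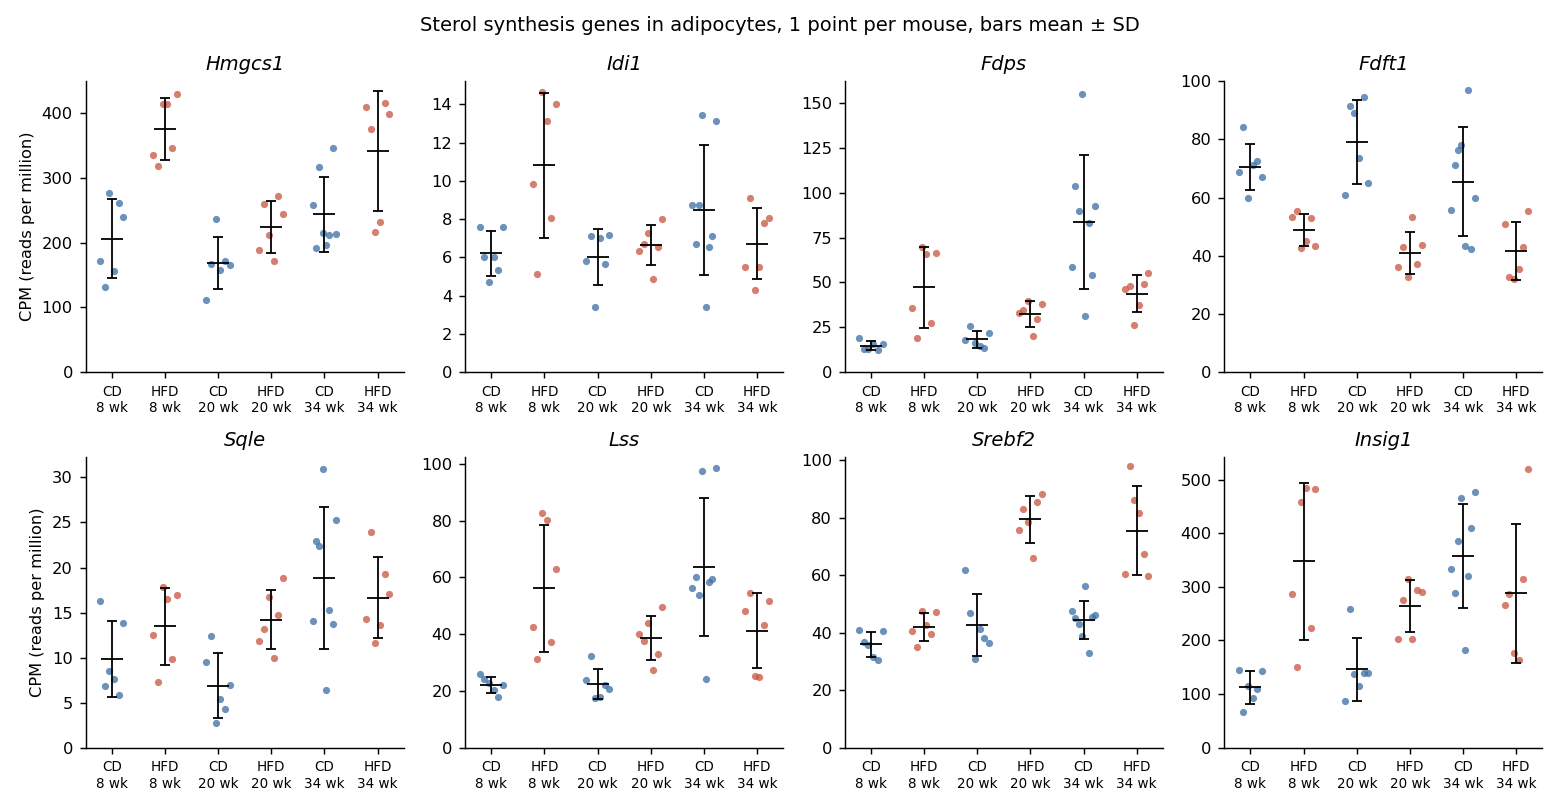
CPM (y axis, linear from 0) of the 8 genes in each mouse, by diet and weeks on diet (x axis), blue for CD and red for HFD, with a bar at the mean and whiskers of 1 SD. The 8 week HFD mice spread widely for Idi1, Fdps, Lss and Insig1, the 34 week CD mice are high for Fdps (mean 83.7 CPM), and Fdft1 is lower in HFD than in CD mice at each time.

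Hmgcs1 (chr13:119690351-119708260) encodes HMG-CoA synthase, which joins acetyl-CoA and acetoacetyl-CoA. In CD mice its lowest, median and highest values were 131, 206 and 277 CPM at 8 weeks, 112, 166 and 236 CPM at 20 weeks, and 192, 214 and 346 CPM at 34 weeks. HFD mice gave 319, 380.4 and 429.7 CPM at 8 weeks, 171, 228 and 272 CPM at 20 weeks, and 217, 388 and 417 CPM at 34 weeks. All 6 HFD mice exceeded all CD mice at 8 weeks, as was so for 15.7% of all genes tested, while the diets overlapped at 20 and 34 weeks. The diet difference was 0.91 ± 0.19 (adjusted p = 0.000381, limma) at 8 weeks, 0.43 ± 0.19 (adjusted p = 0.0569) at 20 weeks and 0.47 ± 0.18 (adjusted p = 0.0345) at 34 weeks. The call at 34 weeks was lost with TMM factors (0.38, adjusted p = 0.0963) and without any 1 of 9 mice (adjusted p 0.0538 to 0.0885).

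Idi1 (chr13:8885606-8892396) encodes the isomerase that makes dimethylallyl diphosphate, and its values rested on 40 to 227 reads per mouse. In CD mice the lowest, median and highest values were 4.73, 6.03 and 7.61 CPM at 8 weeks, 3.38, 6.42 and 7.15 CPM at 20 weeks, and 3.42, 7.94 and 13.4 CPM at 34 weeks. Those of HFD mice were 5.15, 11.5 and 14.7 CPM at 8 weeks, 4.89, 6.62 and 8.01 CPM at 20 weeks, and 4.30, 6.66 and 9.08 CPM at 34 weeks. At 8 weeks 5 of 6 HFD mice lay above all CD mice and the other lay below the CD mean. Idi1 was higher in HFD mice at 8 weeks by 0.65 ± 0.23 (adjusted p = 0.0199), and the diet difference was 0.14 ± 0.23 (adjusted p = 0.619) at 20 weeks and -0.25 ± 0.21 (adjusted p = 0.352) at 34 weeks. The call at 8 weeks was lost without 8 week HFD mouse 3, 4 or 6, with 0.56 to 0.59 and adjusted p 0.0522 to 0.0625.

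Fdps (chr3:89093588-89101967) encodes farnesyl diphosphate synthase, at the point where the route to sterols parts from those to dolichol and ubiquinone. CD mice had lowest, median and highest values of 12.5, 14.3 and 18.9 CPM at 8 weeks, 13.5, 17.1 and 25.9 CPM at 20 weeks, and 31.4, 86.8 and 155 CPM at 34 weeks. In HFD mice they were 18.7, 50.8 and 69.8 CPM at 8 weeks, 19.9, 33.6 and 39.8 CPM at 20 weeks, and 26.5, 47.2 and 55.3 CPM at 34 weeks. The CD mice of 34 weeks all lay above every younger CD mouse. The ratio of the highest to the lowest group mean was 5.68 for Fdps, and from 1.80 (Idi1) to 3.18 (Insig1) for the other 7 genes. The diet difference went from 1.47 ± 0.29 (adjusted p = 0.000155) at 8 weeks and 0.79 ± 0.29 (adjusted p = 0.0182) at 20 weeks to -0.82 ± 0.27 (adjusted p = 0.0134) at 34 weeks. At 20 weeks the call was lost with TMM factors (0.59, adjusted p = 0.0849), and at 34 weeks it was lost without HFD mouse 3 (-0.69, adjusted p = 0.0531) and with only the 34 week groups in the fit (adjusted p = 0.0510). Array weights also removed the 34 week call (-0.63, adjusted p = 0.0508, limma). In GENCODE vM21 the gene Gm43738 covers 7512 bases of Fdps on the same strand. The counting used GENCODE vM2 and, per the paper's methods, only reads that overlapped a gene without ambiguity. Whether Gm43738 was in that annotation, and so whether reads in the overlap were left out, was not checked.

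Fdft1 (chr14:63145150-63181687) encodes squalene synthase, the first enzyme committed to sterols. Its lowest, median and highest values in CD mice were 60.0, 70.0 and 84.1 CPM at 8 weeks, 60.8, 81.3 and 94.6 CPM at 20 weeks, and 42.4, 65.5 and 96.8 CPM at 34 weeks. In HFD mice they were 42.8, 49.1 and 55.5 CPM, then 32.6, 40.2 and 53.2 CPM, then 32.0, 39.2 and 55.5 CPM at the same times. Every HFD mouse lay below every CD mouse at 8 and 20 weeks, and at 34 weeks 3 of 6 HFD mice did. Non-overlap with HFD lower was seen for 7.14% of all genes tested at 8 weeks and 11.1% at 20 weeks. Fdft1 was lower in HFD mice by -0.52 ± 0.16 (adjusted p = 0.00974) at 8 weeks, -0.93 ± 0.16 (adjusted p = 1.43e-05) at 20 weeks and -0.62 ± 0.15 (adjusted p = 0.00168) at 34 weeks. It was the only one of the 8 genes called lower at 8 and 20 weeks, and the call held under every alternative run, each mouse left out included. The 3′ end of Fdft1 overlaps that of Ctsb, a lysosomal protease gene on the other strand, by 774 bases in GENCODE vM21, and how the counting used strand is not given in the sources used here. Ctsb went the other way, with diet differences of 0.52 ± 0.21 (adjusted p = 0.0425) at 8 weeks, 1.40 ± 0.21 (adjusted p = 1.67e-06) at 20 weeks and 0.90 ± 0.20 (adjusted p = 0.000685) at 34 weeks.

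Sqle (chr15:59315092-59331193) encodes squalene epoxidase, an oxygen-dependent step. Its lowest, median and highest values in CD mice were 5.85, 8.06 and 16.3 CPM at 8 weeks, 2.72, 6.21 and 12.4 CPM at 20 weeks, and 6.42, 18.8 and 30.9 CPM at 34 weeks. HFD mice gave 7.27, 14.5 and 17.8 CPM, then 9.93, 13.98 and 18.8 CPM, then 11.6, 15.7 and 24.0 CPM at the same times. The diets overlapped at each time, and at 20 weeks 4 of 6 HFD mice lay above all CD mice. Only at 20 weeks was Sqle called, with a diet difference of 1.05 ± 0.30 (adjusted p = 0.00317), against 0.44 ± 0.30 (adjusted p = 0.223) at 8 weeks and -0.09 ± 0.28 (adjusted p = 0.809) at 34 weeks. The difference of the diet effect between 8 and 20 weeks was 0.60 (95% interval -0.25 to 1.45, adjusted p = 0.338).

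Lss (chr10:76531565-76557139) encodes lanosterol synthase, which closes the sterol rings. Among CD mice the lowest, median and highest values were 17.7, 22.4 and 25.8 CPM at 8 weeks, 17.5, 21.4 and 32.1 CPM at 20 weeks, and 24.2, 58.9 and 98.4 CPM at 34 weeks. HFD mice gave 31.1, 52.7 and 82.6 CPM, then 27.4, 38.9 and 49.5 CPM, then 24.8, 45.7 and 54.5 CPM at the same times. At 8 weeks the 6 HFD mice lay above the CD mice without overlap, as for 15.7% of all genes, while at 34 weeks all 6 lay below the CD mean within the range of the CD mice. The diet difference was 1.22 ± 0.25 (adjusted p = 0.000339) at 8 weeks, 0.76 ± 0.25 (adjusted p = 0.0110) at 20 weeks and -0.58 ± 0.24 (adjusted p = 0.0488) at 34 weeks. The last call lies at the threshold, since it was lost without any 1 of 27 mice (adjusted p up to 0.154), and the call at 20 weeks was lost with TMM factors (0.55, adjusted p = 0.0636). With only the 34 week groups in the fit the 34 week call was also lost (adjusted p = 0.144, limma).

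Srebf2 (chr15:82147269-82205379) encodes SREBP-2. Its lowest, median and highest values in CD mice were 30.5, 36.1 and 40.8 CPM at 8 weeks, 30.8, 39.7 and 61.9 CPM at 20 weeks, and 33.1, 45.2 and 56.4 CPM at 34 weeks. In HFD mice they were 35.0, 41.5 and 47.5 CPM at 8 weeks, 65.9, 80.6 and 88.2 CPM at 20 weeks, and 59.6, 74.4 and 97.8 CPM at 34 weeks. The diets overlapped at 8 weeks, and at 20 and 34 weeks the lowest HFD mouse exceeded the highest CD mouse. Such non-overlap with HFD higher was seen for 26.1% of all genes tested at 20 weeks and for 1.47% at 34 weeks. The diet difference was 0.22 ± 0.13 (adjusted p = 0.170) at 8 weeks, 0.91 ± 0.13 (adjusted p = 1.04e-06) at 20 weeks and 0.74 ± 0.12 (adjusted p = 5.23e-05) at 34 weeks. The calls at 20 and 34 weeks held under every alternative run. The microRNA gene Mir33 lies within Srebf2 on the same strand and was not analysed here.

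Insig1 (chr5:28071412-28078662) encodes the sterol sensor that retains the SREBP complex in the endoplasmic reticulum and is itself an SREBP target. Its lowest, median and highest values in CD mice were 66.7, 113 and 146 CPM at 8 weeks, 88.0, 138 and 259 CPM at 20 weeks, and 183, 359 and 476 CPM at 34 weeks. HFD mice gave 151, 373 and 484 CPM, then 203, 283 and 315 CPM, then 163, 276 and 520.0 CPM at the same times. At 8 weeks the lowest HFD mouse exceeded the highest CD mouse, a pattern shown by 15.7% of all genes, and at 34 weeks 5 of 6 lay below the CD mean. Insig1 was higher in HFD mice at 8 weeks by 1.54 ± 0.28 (adjusted p = 7.97e-05) and at 20 weeks by 0.91 ± 0.28 (adjusted p = 0.00668), and the difference was -0.37 ± 0.26 (adjusted p = 0.261) at 34 weeks.

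Over the 6 groups, the means of the 8 genes ordered differently. Fdps, Lss, Sqle and Insig1 had their highest mean in 34 week CD mice, Hmgcs1 and Idi1 in 8 week HFD mice, Srebf2 in 20 week HFD mice and Fdft1 in 20 week CD mice. Of the 40 pairs of groups next to each other in these orders, 39 had overlapping ranges of mice, and the exception was Srebf2 between 34 week CD and 34 week HFD mice.

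**Figure D2:**
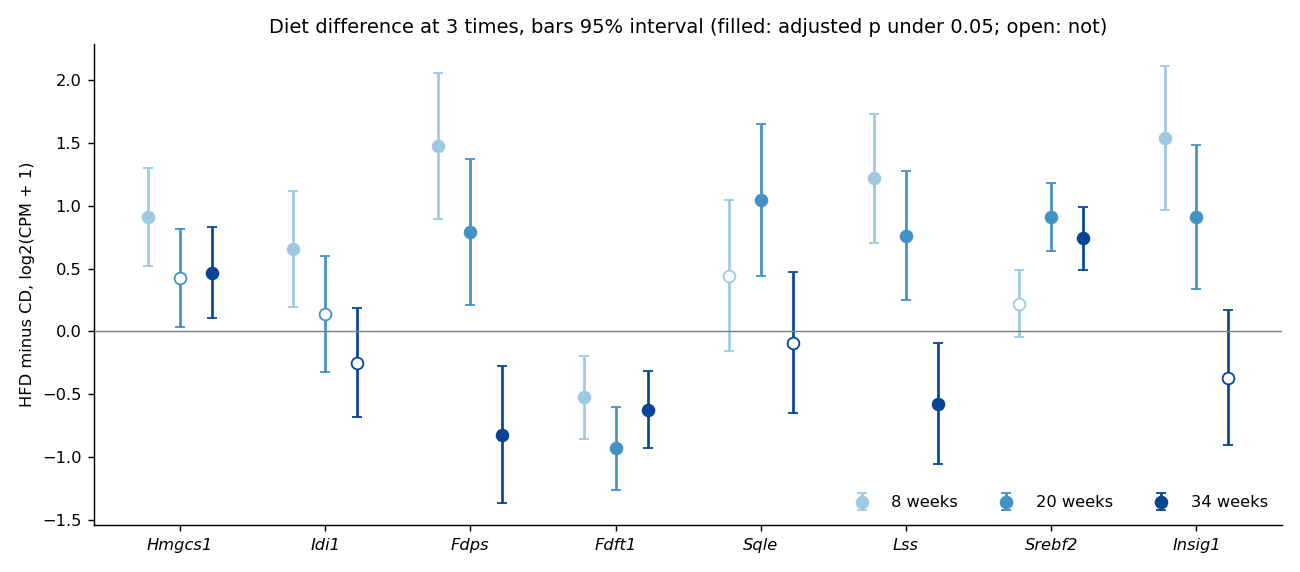
Difference of HFD and CD mice in log2(CPM + 1) (y axis) for each gene (x axis) at 8, 20 and 34 weeks (light to dark blue), with bars for the 95% interval of the limma fit and filled symbols for an adjusted p under 0.05. Fdps and Lss pass from above 0 at 8 weeks to below 0 at 34 weeks, Srebf2 is at 0.22 at 8 weeks and at 0.91 and 0.74 later, and Fdft1 is below 0 throughout.

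Counted over the 8 genes, 5 were higher and 1 lower in HFD mice at 8 weeks, where 29.8% of the 10343 genes tested were called higher and 15.1% lower (44.9% in all). The median difference of the 8 genes was 0.78, against 0.11 over all genes tested. At 20 weeks 5 were higher and 1 lower, with 38.3% and 18.7% of all genes (57.0% in all), and medians of 0.78 and 0.14. At 34 weeks 2 were higher and 3 lower, with 27.5% and 15.7% of all genes (43.2% in all), and medians of -0.31 and 0.07. With only the 34 week mice in the fit, 2 of the 8 genes, Srebf2 and Fdft1, were called, as were 2457 of the 10343 genes. Other scalings moved the median of all genes by -0.10 (TMM) and -0.11 (median of ratios) at 8 weeks, by -0.21 and -0.16 at 20 weeks, and by -0.09 with each at 34 weeks. With TMM the calls over all genes were 51.3% rather than 66.3% higher at 8 weeks, 44.7% rather than 67.1% at 20 weeks and 51.9% rather than 63.6% at 34 weeks. The 8 genes then gave 5 higher and 1 lower, 3 higher and 1 lower, and 1 higher and 3 lower.

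Whether the diet difference itself changed with time was tested as an interaction. Between 8 and 34 weeks it fell by 2.29 ± 0.39 for Fdps (adjusted p = 9.08e-05), by 1.91 ± 0.39 for Insig1 (adjusted p = 0.000499), by 1.79 ± 0.35 for Lss (adjusted p = 0.000336) and by 0.90 ± 0.31 for Idi1 (adjusted p = 0.0284). Over the same interval it increased by 0.52 ± 0.18 for Srebf2 (adjusted p = 0.0299). These are 4 negative and 1 positive of 8 genes, with 15.9% and 13.0% of all genes tested. Between 20 and 34 weeks Fdps (-1.62 ± 0.39, adjusted p = 0.00835), Lss (-1.34 ± 0.35, adjusted p = 0.0128) and Insig1 (-1.28 ± 0.39, adjusted p = 0.0296) were called, all negative, with 6.31% of all genes negative. Between 8 and 20 weeks only Srebf2 was called, at 0.69 ± 0.19 (adjusted p = 0.0325), with 2.81% of all genes positive. Srebf2 between 8 and 20 weeks was lost without any 1 of 10 mice (0.61 to 0.68) and Idi1 between 8 and 34 weeks without any 1 of 5 mice (-0.84 to -0.80). Srebf2 between 8 and 34 weeks and Insig1 between 20 and 34 weeks were each lost without any 1 of 5 mice, with adjusted p up to 0.0694 and 0.0582.

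Time was also compared within each diet. The times are separate groups of mice and time on diet is also age, so these cannot be told apart. Rises and falls here and in the next paragraph are differences between group means. Between 8 and 20 weeks of CD limma called none of the 8 genes, while it called 3.58% of all genes. None of the 8 had an unadjusted p under 0.05, and edgeR called none of them either. Between 20 and 34 weeks of CD, Fdps rose by 2.03 ± 0.27 (adjusted p = 1.44e-07), Lss by 1.39 ± 0.24 (adjusted p = 8.72e-06), Sqle by 1.34 ± 0.28 (adjusted p = 0.000111), Insig1 by 1.31 ± 0.26 (adjusted p = 7.84e-05) and Hmgcs1 by 0.53 ± 0.18 (adjusted p = 0.0108). That is 5 of 8 genes higher, with 41.1% of all genes higher. Between 8 and 34 weeks of CD, Fdps, Insig1, Lss, Sqle and Srebf2 were higher, by 2.31, 1.65, 1.39, 0.84 and 0.29, with 40.1% of all genes higher. The call for Srebf2 was lost with TMM factors (0.16, adjusted p = 0.163) and without any 1 of 8 mice (adjusted p 0.0522 to 0.0979). The call for Hmgcs1 between 20 and 34 weeks was lost with TMM factors (0.37, adjusted p = 0.0808).

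In HFD mice, between 8 and 20 weeks Srebf2 rose by 0.90 ± 0.13 (adjusted p = 1.52e-05), while Hmgcs1 fell by 0.75 ± 0.19 (adjusted p = 0.00307) and Idi1 by 0.57 ± 0.23 (adjusted p = 0.0484), with 36.5% of all genes called. Between 20 and 34 weeks only Hmgcs1 was called, 0.57 ± 0.19 higher (adjusted p = 0.0236), with 30.2% of all genes called. Between 8 and 34 weeks Srebf2 was 0.81 ± 0.13 higher (adjusted p = 1.12e-05) and Idi1 0.58 ± 0.23 lower (adjusted p = 0.0321), with 52.5% of all genes called. Without 1 of 25 mice Idi1 was no longer called between 8 and 20 weeks, without 1 of 6 it was not between 8 and 34 weeks, and without 1 of 5 Hmgcs1 was not between 20 and 34 weeks. For Fdps the difference between 8 and 34 weeks of HFD was 0.01 (95% interval -0.57 to 0.59).

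The other enzymes of the pathway gave 13 measured genes of 14 listed. The shares over all genes tested were 29.8%, 38.3% and 27.5% higher and 15.1%, 18.7% and 15.7% lower at 8, 20 and 34 weeks. At 8 weeks 8 were higher in HFD mice and none lower, among them Dhcr7 (1.62 ± 0.23), a sterol reductase, and Nsdhl (1.20 ± 0.29), an enzyme of lanosterol demethylation. At 20 weeks 4 were higher and 2 lower, with Dhcr7 (1.61 ± 0.23) and the mevalonate enzyme Mvd (0.83 ± 0.22) higher and the thiolase Acat2 (-0.64 ± 0.20) and the prenyl synthase Ggps1 (-0.37 ± 0.11) lower. At 34 weeks none was higher and 5 were lower, led by the mevalonate enzyme Pmvk (-1.01 ± 0.21), Acat2 (-0.91 ± 0.19) and the sterol reductase Tm7sf2 (-0.68 ± 0.19). The medians were 0.63, 0.34 and -0.28 at the 3 times. With TMM, median-of-ratios factors or edgeR these enzymes gave 8 higher and 1 lower at 8 weeks, 4 higher and 4 lower at 20 weeks, and 6 lower at 34 weeks. In CD mice 9 of 13 were higher and 1, Ggps1, was lower at 34 than at 8 weeks, with Dhcr7 at 1.94 ± 0.22 and Nsdhl at 1.52 ± 0.27. In that comparison 40.1% of all genes tested were higher. Between 8 and 34 weeks the diet difference went down for 11 of the 13 and up for none, with 15.9% of all genes tested negative. The others, named after their values were seen, were Hsd17b7 (-0.29 ± 0.37) and Ggps1 (0.23 ± 0.14).

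**Figure D3:**
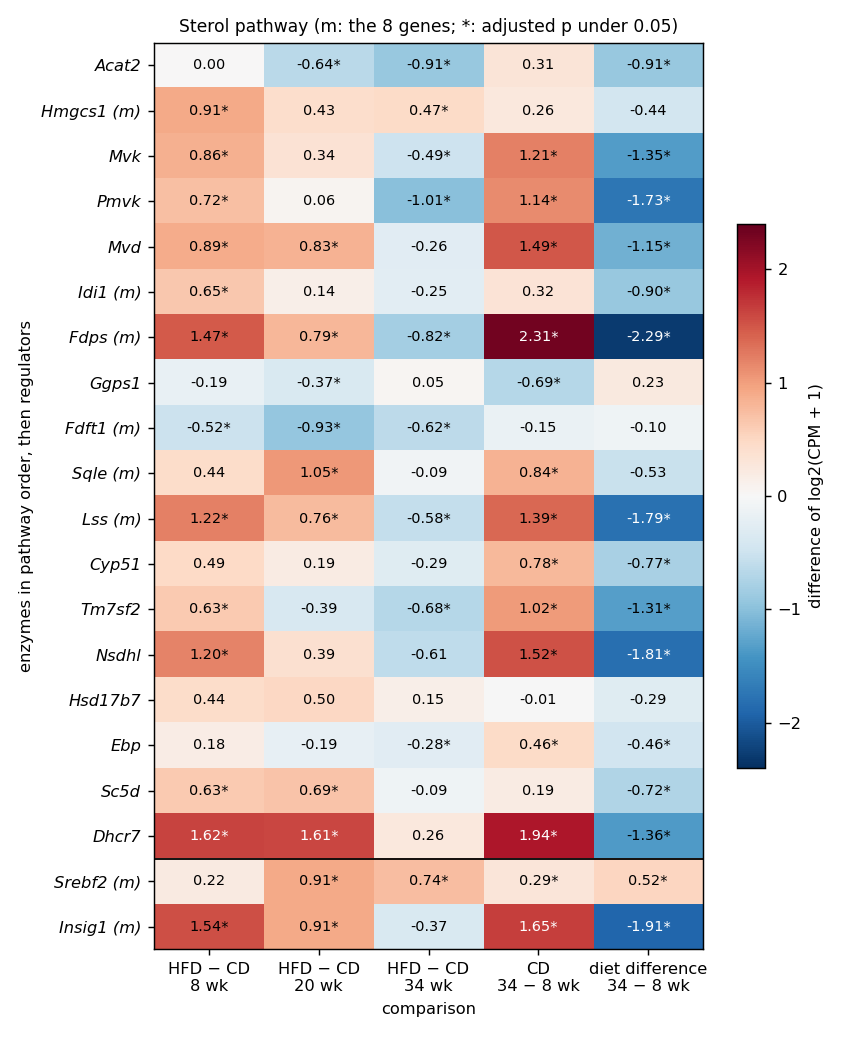
Differences in log2(CPM + 1) (colour and number) of 18 of the 19 measured sterol enzymes in about the order of the pathway and of the regulators Srebf2 and Insig1 (rows) in 5 comparisons (columns), with m for the 8 genes and an asterisk for an adjusted p under 0.05. The 8 week column is mostly positive, the 34 week column mostly negative and the CD 34 against 8 week column mostly positive, with Fdft1, Ggps1 and Srebf2 apart from the rest.

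The genes that process SREBPs or sense sterol gave 9 measured of 10 listed. Over all genes tested, 29.8%, 38.3% and 27.5% were higher and 15.1%, 18.7% and 15.7% lower in HFD mice at 8, 20 and 34 weeks. At 8 weeks 1 of them, Erlin2, a membrane protein of the endoplasmic reticulum, was higher (0.49 ± 0.10) and 1 was lower, with a median of -0.01 over the list. At 20 weeks 3 were higher and 3 lower, among them the protease Mbtps2 (0.69 ± 0.14), Insig2 (-0.56 ± 0.13) and Srebf1 (-0.78 ± 0.21), which encodes the SREBP of fatty acid synthesis. At 34 weeks 4 were higher and 2 lower, with Mbtps2 at 0.56 ± 0.13, Srebf1 at -0.60 ± 0.20 and Insig2 at -0.46 ± 0.12. At 20 and 34 weeks Srebf1 was thus lower and Srebf2 higher in HFD mice, and Insig2 was lower at both times.

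The list for lipoprotein uptake and lysosomal sterol handling had 11 genes measured of 11. At 8 weeks 5 were higher in HFD mice, at 20 weeks 10 and at 34 weeks 7, and none was called lower at these times. Of all genes tested, 29.8%, 38.3% and 27.5% were called higher at the 3 times, and 15.1%, 18.7% and 15.7% lower. Lipa, the lysosomal lipase that frees cholesterol from its esters, differed by 1.30 ± 0.40, 3.03 ± 0.40 and 2.12 ± 0.38 at the 3 times. Stard4, a sterol carrier, differed by 1.03 ± 0.28, 1.45 ± 0.28 and 0.71 ± 0.26. Vldlr, a lipoprotein receptor, differed by 1.05 ± 0.21, 0.76 ± 0.21 and 0.34 ± 0.20, the last with an adjusted p of 0.162. Genes for efflux and esterification, 7 tested of 8, gave 2, 3 and 4 higher and 1 lower at the successive times. At 8 and 20 weeks their share called higher was near that over all genes. Nceh1 (2.31, 3.98 and 1.98) and Soat1 (1.54, 2.80 and 1.49), enzymes of cholesteryl ester turnover, were higher and the apolipoprotein gene Apoc1 (-0.86, -2.17 and -1.14) was lower. Macrophages also use Lipa, Nceh1 and Soat1, and their marker RNA rose with the diet as given above. The part of macrophages in these differences was not tested.

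Fatty acid synthesis, the other lipogenic route under SREBP control, had 11 genes tested of 12. Of all genes tested, 29.8%, 38.3% and 27.5% were higher and 15.1%, 18.7% and 15.7% lower at the 3 times. At 8 weeks 1 gene, Scd2 (3.34 ± 0.57), was higher and 4 were lower. The list median was 0.19 at that time, against 0.11 over all genes tested. At 20 weeks 1, again Scd2 (2.30 ± 0.57), was higher and 5 were lower, with a median of -0.67. At 34 weeks none was higher and 9 were lower, with a median of -1.75. Elovl6 (-2.51 ± 0.42), Acaca (-2.28 ± 0.35) and Fasn (-2.24 ± 0.46) had the largest called differences of the list at 34 weeks. The diet difference of Scd2 fell by 4.96 ± 0.78 between 8 and 34 weeks (adjusted p = 4.51e-05). Of 12 adipocyte markers, 2 were higher and 8 lower at 20 weeks (median -0.65) and 9 were lower at 34 weeks (median -0.57), and their part in these differences was not tested.

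Mice of a single group differed from each other in these genes, and this was examined with the deviation of each mouse from its group mean of log2(CPM + 1). Idi1, Fdps, Sqle, Lss and Insig1, a set picked after the correlations had been seen, gave Pearson's r of 0.66 to 0.86 and Spearman's rho of 0.67 to 0.82 in all 10 pairs over the 38 mice. The range of r was 0.60 to 0.84 in CD mice alone and 0.81 to 0.96 in HFD mice alone, and 0.56 to 0.80 when the 2 mice farthest from the median were left out of each pair. In all, 11 of the 28 pairs of the 8 genes reached an r of 0.5, against 10.04% of the 53483653 pairs of genes tested. These correlations are descriptions over libraries that share their depth and composition, and the genes are not independent.

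Hmgcs1 went with Insig1 (r = 0.60, rho = 0.60) and had an r of 0.08 to 0.27 with Sqle, Idi1, Fdps and Lss. In HFD mice alone these 4 values were 0.66 to 0.74, and in CD mice alone -0.19 to -0.12. Srebf2, whose product drives the pathway, had an r between -0.24 and 0.35 with 6 of the other genes. The highest was with Sqle (rho = 0.42). In HFD mice alone its r was 0.52 with Sqle, 0.43 with Idi1 and -0.03 to 0.30 with Hmgcs1, Insig1, Lss and Fdps. In CD mice alone its r was 0.28 with Sqle and 0.04 with Idi1. With Fdft1 its r was -0.67 (rho = -0.63), -0.59 in CD and -0.82 in HFD mice, so mice with more Srebf2 RNA than their group tended to have less Fdft1 RNA. Set against the mean of the other 7 genes, r was 0.81 to 0.89 for the 5 genes above, 0.27 for Hmgcs1, 0.05 for Fdft1 and 0.00 for Srebf2. For Lss only 1 of the 10335 other genes followed that mean more closely, and for Srebf2 4810 did.

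**Figure D4:**
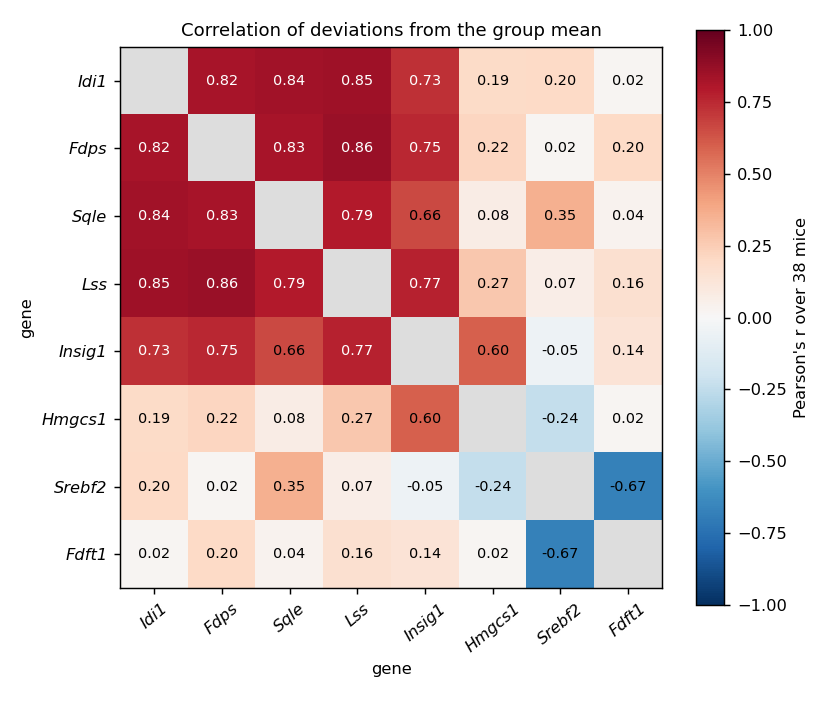
Pearson's r (colour and number) of the deviations from the group mean of log2(CPM + 1) for each pair of the 8 genes over 38 mice. Idi1, Fdps, Sqle, Lss and Insig1 form a block of 0.66 to 0.86, and Srebf2 and Fdft1 give -0.67.

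In 34 week CD mouse 5, Fdps was at 31.4, Lss at 24.2, Insig1 at 183, Sqle at 6.42 and Idi1 at 3.42 CPM, each the lowest of the 8 mice of its group. That mouse also had the most macrophage marker RNA of its group, 9217 CPM against 893 to 6184 CPM, and the least adipocyte marker RNA, 29852 CPM. Its progenitor and fibroblast marker RNA was at 2126 CPM, against 371 to 581 CPM in the other 7 mice. Without it, the diet difference at 34 weeks was -1.0015 for Fdps and -0.75 for Lss, and Hmgcs1 was no longer called (0.43, adjusted p = 0.0538), leaving 4 of the 8 genes called. Among 8 week HFD mice, 3, 4 and 6 were high and mouse 2 was lowest for all 5 genes, with Fdps at 69.8, 65.7, 66.3 and 18.7 CPM and Insig1 at 458, 484, 482 and 151 CPM. Mice 3, 4 and 6 had 1922 to 2584 CPM of macrophage markers, above the other 3 mice at 932 to 1212 CPM, so in that group the high values went with more of this RNA and in 34 week CD mouse 5 the low values did. Over all 38 mice the mean deviation of the 8 genes had an r of -0.18 with that of the summed macrophage markers (rho = -0.10; r = -0.01 without the 2 farthest mice) and of 0.20 with that of the adipocyte markers (rho = -0.03). That mean pools Srebf2 and Fdft1, which moved in opposite directions, so it does not describe single genes. In 34 week CD mouse 5 Srebf2 was highest of its group (56.4 CPM) and Fdft1 was at 43.3 CPM. Mouse 6 of that group, with the least macrophage marker RNA, had the lowest Srebf2 (33.1 CPM) and highest Fdft1 (96.8 CPM). The 8 week CD mouse with the least of this RNA (398 CPM) had Srebf2 at 40.80 CPM, the highest of its group. That with the most (1585 CPM) had 40.76 CPM. The 20 week CD mouse with the most (2805 CPM) had the highest Srebf2 of its group (61.9 CPM). The 20 and 34 week HFD mice with the least (3478 and 3867 CPM) had the lowest Srebf2 (65.9 and 59.6 CPM). They also had the highest Fdft1 (53.2 and 55.5 CPM). In these HFD groups the mouse with the most did not have the highest Srebf2. The 8 week HFD mouse with the least did not have the lowest. Single genes were not tested against this RNA.

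The summed CPM of the 13 other sterol enzymes followed the mean of the 8 genes with r = 0.93 and rho = 0.89 (r = 0.89 without the 2 farthest mice), and fatty acid synthesis did so with r = 0.42 and rho = 0.25 (r = 0.18 without the 2 farthest mice). The 5 genes outside the 8 with the highest r to their mean deviation were Nsdhl (0.90), Cyp51 (0.90), Cyb5b (0.89), Sc5d (0.87) and Serpinh1 (0.86). Nsdhl, Cyp51 and Sc5d are enzymes of the pathway after lanosterol, Cyb5b encodes an outer mitochondrial cytochrome b5 and Serpinh1 a collagen chaperone.

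**Figure D5:**
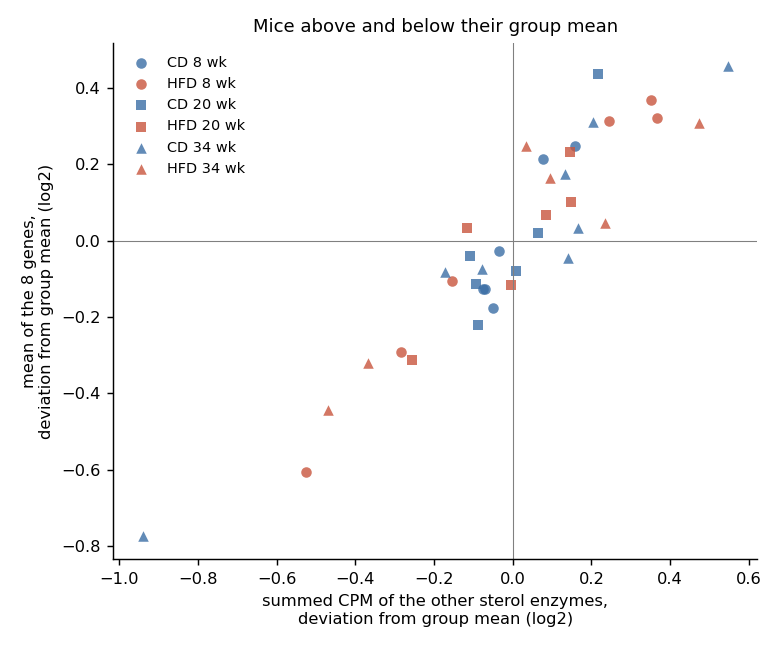
Deviation of each mouse from its group mean on the log2 scale, for the mean of the 8 genes (y axis) and for the summed CPM of the 13 other sterol enzymes (x axis), with colour for diet and shape for weeks. The 38 mice lie along a rising line (r = 0.93), with 34 week CD mouse 5 at the lower left.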

How the data were processed

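Libraries were made with a stranded mRNA kit and sequenced on a NextSeq 500. Per the labels and the study's methods, reads were aligned with STAR 2.5.2b to mm10 and counted per gene with featureCounts (Subread 1.5.1) and a GENCODE vM2 annotation; the strand setting is not given in the sources used here. The authors deposited 1 table of CPM (counts scaled to 1000000 per library), with technical replicates merged to 38 mice from 114 labelled samples. Each deposited CPM column summed to 1000000, so no TMM scaling, although named in the methods, is visible in the values. Whole reads were recovered for 100.0% of values within 0.1 read, and 7966 genes had no read.

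log2(CPM + 1) was fitted with limma 3.58.1 (R 4.3.3) on 10343 genes with a mean above 2.0, in 1 model of 6 groups with 32 residual degrees of freedom, a trend in the prior variance and Benjamini-Hochberg adjustment at 0.05. Every adjusted p is from limma over all genes tested unless edgeR 4.0.16, run on the recovered reads, is named. The alternatives were another pseudocount, no filter and a stricter filter, TMM and median-of-ratios factors, array weights, only the groups compared, mouse number as a replicate block, edgeR, and each mouse left out. The labels state no pairing of mice by number. Deviations were correlated between CD and HFD mice of the same number and time. Of these 18 pairs, 8 had a correlation over 0.1 (range -0.51 to 0.53). Pairs with unlike numbers were not compared, so these values cannot show whether mice of the same number share a batch. No 2 mice of a group had counts within sampling noise of each other. Precision is that of the spread between mice, and counting error is included in it. Scripts were tested on simulated data.

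The 8 genes and the lists were chosen with earlier results of these data known. The genes named from the other lists were up to 3 with the largest called change in each diet comparison, and any called against most of the list. The 5 genes most like the 8 were those with the highest Pearson's r to their mean deviation. Of 135 list entries 132 matched a gene, by Entrez identifier or else by symbol, and the other 3 were not analysed here. Promoter sequences and gene positions are from RefSeq (GRCm38.p6) and were searched for motifs by exact match. CPM is compared within a gene only, since it is not per length. Single values of some list genes are not reported here, and the counts and medians of their lists include them.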

Additional observations from a re-analysis of the deposited data

Results flagged for a closer look

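In 2 of 48 sets of gene and group, 1 mouse stood apart from the others of its group, where chance gives about 1 set in 20. Lss was at 24.2 CPM in 34 week CD mouse 5, against 53.9 to 98.4 CPM in the other 7 mice. Idi1 was at 3.38 CPM in 20 week CD mouse 3, against 5.63 to 7.15 CPM in the other 5 mice.

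Of 24 tests of whether the diet difference changed between times, 9 passed the threshold. Between 8 and 20 weeks it was Srebf2, at 0.69 on the log2 scale. From 20 to 34 weeks the diet difference changed by -1.62 for Fdps, -1.34 for Lss and -1.28 for Insig1. From 8 to 34 weeks it changed by -2.29 for Fdps, -1.91 for Insig1, -1.79 for Lss, -0.90 for Idi1 and 0.52 for Srebf2. The 3 pairs of times share groups of mice, so these tests are not independent of each other.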

How the results depend on the processing

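Among diet differences, Fdft1 at all 3 times and Srebf2 at 20 and 34 weeks kept their calls under every alternative run. So did Insig1 at 8 and 20 weeks, Hmgcs1, Fdps and Lss at 8 weeks, and Sqle at 20 weeks. The changes in diet difference also held for Fdps and Lss from 8 or 20 to 34 weeks. For Insig1 the change from 8 to 34 weeks held. The direction turned for values near 0: Idi1 at 20 weeks was -0.0450 with TMM, -0.00350 with median-of-ratios factors and -0.0505 with edgeR, and Sqle at 34 weeks was 0.0266 with array weights and between -0.276 and 0.0248 with 1 mouse left out (0.0248 without CD mouse 4 and 8.32e-05 without HFD mouse 3). Of the 8 genes, those called at 34 weeks went from 5 to 3 with no filter and to 2 with only the groups compared, and those called between 34 and 8 weeks of HFD went from 2 to 1 under both. With array weights 6 of the 8 were called between 20 and 8 weeks of HFD, where 6392 of the 10343 genes were, and 6 each in the change of diet difference from 8 to 20 (4263 genes) and from 20 to 34 weeks (3407 genes). Among the other sterol enzymes, 11 (array weights) and 10 (only the groups compared) were called at 20 weeks, against 6, and 3 (only the groups compared) at 34 weeks, against 5. Mouse number as a replicate block is a pairing that the labels do not state. With it none of the 8 genes was called for the change from 8 to 20 weeks (Srebf2 0.69, adjusted p = 0.0512, limma). The Lss call at 34 weeks was lost (-0.45, adjusted p = 0.142, limma). So were those of Insig1 from 20 to 34 weeks (-1.16) and Idi1 from 8 to 34 weeks (-0.81). The median r of the 28 pairs was 0.21, against 0.66 in HFD mice alone. With 1 mouse left out, the calls among the 8 genes numbered 5 to 6, 6 to 7 and 3 to 5 at 8, 20 and 34 weeks, 5 to 6 and 4 to 5 for CD at 34 against 20 and 8 weeks, 2 to 3, 0 to 1 and 1 to 2 for HFD at 20 against 8, 34 against 20 and 34 against 8 weeks, and 0 to 1, 2 to 4 and 3 to 5 for the changes of diet difference from 8 to 20, 20 to 34 and 8 to 34 weeks. The other sterol enzymes gave 8 to 9, 6 to 7 and 3 to 6, all list genes outside the 8 gave 47 to 58, 65 to 72 and 52 to 71, and the median r ran from 0.17 to 0.26. Counting error weighs most on Idi1 and Sqle, whose lowest mice had 40 and 37 reads. The cause of these changes was not tested.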

Other observations

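Other cells of the fat pad left marker RNA in the fraction. Markers of lipid-associated macrophages, 8 tested, were higher in HFD mice for 7, 8 and 7 genes at 8, 20 and 34 weeks, with median log2 differences of 2.68, 5.01 and 2.30. Of 6 endothelial markers 6, 5 and 5 were higher, and of 6 tested progenitor and fibroblast markers 3, 6 and 3 were. Of 5 mural markers 4, 3 and 2 were higher. The 2 tested mesothelial markers gave 2, 0 and 0 higher, and the 2 tested erythroid markers 1, 0 and 2. Among all genes tested 29.8%, 38.3% and 27.5% were higher at the 3 times. None of the T cell, B cell and epididymis markers passed the filter on low values. In CD mice at 34 against 8 weeks, where 5 of the 8 sterol synthesis genes were higher, 6 of 9 macrophage markers and 8 of 8 lipid-associated macrophage markers were higher, and none of the endothelial markers was called. Of the other lists, 2 of 12 adipocyte markers were higher and 5 lower, 2 of 6 progenitor and fibroblast markers were higher and 1 lower, and 2 of 5 mural and 2 of 2 tested mesothelial markers were higher. Of all genes tested, 40.1% were higher in that comparison. The adipocyte, progenitor and fibroblast, and mural lists did not exceed that share. The part of these cells in the results was not tested.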
